A study of Mus musculus with 23 samples.

Results

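The miR-106b-25 cluster and miR-32 were described here through 8 mature microRNAs (miRNAs), the 2 arms of each of 4 hairpins: mmu-miR-106b-5p, mmu-miR-106b-3p, mmu-miR-93-5p, mmu-miR-93-3p, mmu-miR-25-3p, mmu-miR-25-5p, mmu-miR-32-5p and mmu-miR-32-3p, written below without the prefix for mouse. They were taken by name, without regard to their values, and all 8 were among the 1218 miRNAs of the deposited count table. A filter on low counts kept 386 miRNAs and 7 of the 8 members, miR-32-3p being too scarce to pass. Small RNA sequencing had been made from the livers of 23 male C57bl/6J mice of the third generation bred on supplemented diets, 1 mouse per library. The reference group (8 libraries) came from the lineage that received high oleic sunflower oil, labelled as the control fatty acid, and was given the low-fat diet labelled STD. The HFoleic group (8 libraries) came from the same lineage and was given the high-fat, high-sucrose diet labelled HFD. The HFepa group (7 libraries) received HFD as well, but came from the n-3PUFA lineage, bred on fish oil rich in eicosapentaenoic acid (EPA). HFoleic vs. reference therefore compared diets within a lineage, HFepa vs. HFoleic compared lineages on 1 diet, and HFepa vs. reference changed both. No EPA lineage on the low-fat diet was analysed here.

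A miRNA is cut from an RNA hairpin, which can release a strand from its 5′ side (5p) and another from its 3′ side (3p). The strand that is loaded into Argonaute pairs with target messenger RNAs mainly through its seed, bases 2 to 8, so miRNAs with the same seed can recognise overlapping sets of targets. The miR-106b-25 cluster is a relative of the miR-17-92 cluster, is made from an intron of Mcm7, which encodes a subunit of the replicative helicase, and is known for acting on cell cycle inhibitors and pro-apoptotic factors such as p21 and Bim. miR-32 comes from another chromosome and carries the seed of miR-25.

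The sequences are shown because the members fall into pairs by seed that cut across the hairpins (RefSeq, GRCm38.p6, seed in capitals). The first pair shares the seed of the miR-17 family, and the 2 other miRNAs with this seed that passed the filter are printed with it.
miR-106b-5p: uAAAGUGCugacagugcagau
miR-93-5p: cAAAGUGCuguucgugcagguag
miR-17-5p: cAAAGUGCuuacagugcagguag
miR-20a-5p: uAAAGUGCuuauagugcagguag
The second pair shares the seed of the miR-92 family.
miR-25-3p: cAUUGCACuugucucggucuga
miR-32-5p: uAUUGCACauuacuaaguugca
miR-92a-3p: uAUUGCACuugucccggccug
miR-92b-3p: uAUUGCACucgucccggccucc
The remaining 4 members are the opposite strands, and no 2 of them share a seed.
miR-106b-3p: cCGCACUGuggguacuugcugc
miR-93-3p: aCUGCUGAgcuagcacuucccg
miR-25-5p: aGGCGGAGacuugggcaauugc
miR-32-3p: cAAUUUAGugugugugauauu
After the seed, miR-25-3p and miR-32-5p were identical at 6 of 14 positions, whereas miR-25-3p and miR-92a-3p were identical at 11 of 13. An edit distance (the fewest single-base substitutions, insertions or deletions) of 8 separated miR-32-5p from miR-25-3p, its nearest sequence among the RefSeq miRNAs in the table. The smallest distance between a member and another miRNA was 3, between miR-93-5p and both miR-17-5p and miR-20b-5p. miR-25-3p lay 4 edits from miR-92a-3p, which had 774931 counts against its own 127832. Reads with sequencing errors could be split between such neighbours, and the counts of these pairs carry that uncertainty.

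In GRCm38 with the GENCODE M21 annotation, Mir106b (chr5:138165737-138165818), Mir93 (chr5:138165523-138165610) and Mir25 (chr5:138165321-138165404) lie in this order on the minus strand, in the 748-base intron between exons 13 and 14 of the principal Mcm7 transcript, on the strand of the host gene. Mir93 and Mir25 also overlap an exon of a retained-intron transcript, Mcm7-202. The 3 hairpins span 498 bases, with gaps of 126 and 118 bases between them, so they can be carried by a single primary transcript. Mir32 (chr4:56895229-56895298, minus strand) lies in the 8125-base intron between exons 14 and 15 of Tmem245, a gene for a transmembrane protein, again on the strand of its host. Both hairpins of the pair with the miR-92 seed are printed 5′ to 3′ with their mature arms in capitals, since they release their seed-bearing arm from opposite sides.
Mir25: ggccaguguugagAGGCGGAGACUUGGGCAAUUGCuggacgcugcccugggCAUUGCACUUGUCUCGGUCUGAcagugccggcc
Mir32: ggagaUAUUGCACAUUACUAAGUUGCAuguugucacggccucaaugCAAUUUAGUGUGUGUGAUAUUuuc

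**Figure D1:**
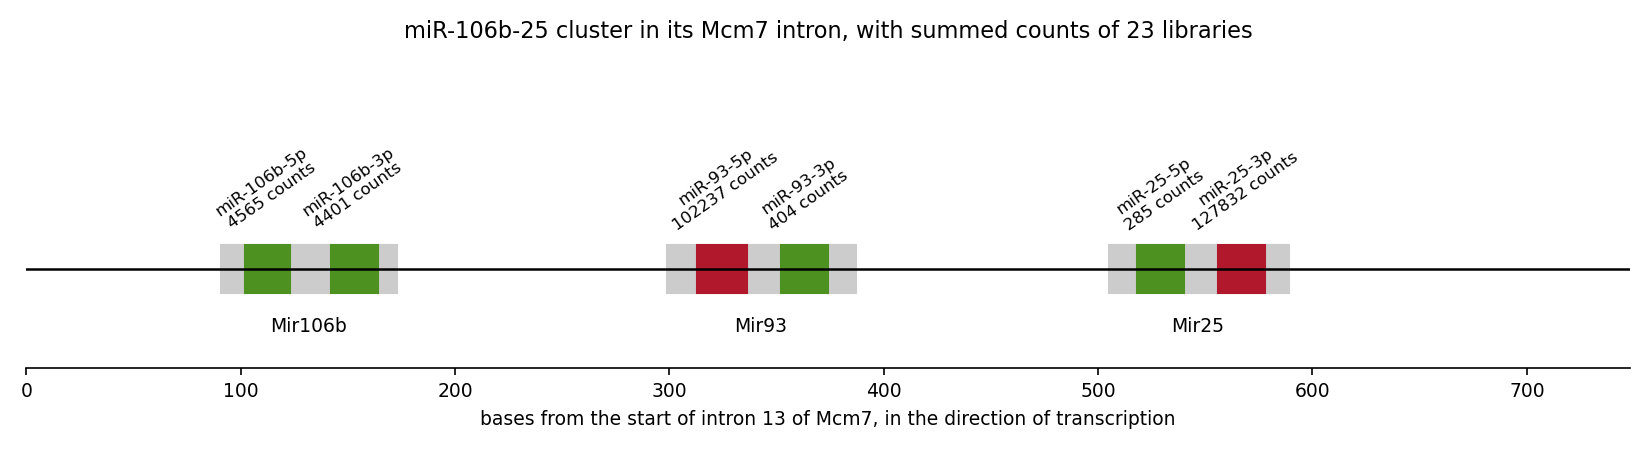
Positions of the Mir106b, Mir93 and Mir25 hairpins (grey) and their mature arms in the Mcm7 intron, in bases from the start of the intron in the direction of transcription, with the counts of each arm summed over 23 libraries. The arms in red, miR-93-5p and miR-25-3p, held 42.6% and 53.3% of the counts of the cluster.

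Library totals ran from 5242218 to 8139344 counts in reference livers, from 4340903 to 7220112 in HFoleic and from 3725432 to 4947990 in HFepa. The labels number the libraries, and all 8 reference libraries were numbered 1 to 8, HFoleic 9 to 15 and 23, and HFepa 16 to 22. What the numbers stand for is not given in the sources used here, and within numbers 1 to 11 only HFoleic 9 to 11 can be set against the reference. As a check of the tissue, 4 hepatocyte miRNAs, miR-122-5p among them, summed to between 183918 and 348445 CPM (counts scaled to 1000000 per library, with factors from TMM, the trimmed mean of M-values) in the 23 libraries. Reference library 3 held the lowest of these sums and the highest summed level of 5 biliary epithelial miRNAs (1094 CPM, against 151 to 333 CPM in the other libraries), reference library 5 the highest summed level of 4 pancreatic miRNAs (2021 CPM), and reference library 4 the highest of 3 muscle miRNAs (215 CPM). The sum of 5 erythroid miRNAs, known to be abundant in red cells as miR-92a-3p is, was 6390 to 15794 CPM in reference livers, 7290 to 11376 CPM in HFoleic and 6391 to 13039 CPM in HFepa. In bulk liver, fewer cells of a type and less RNA per cell cannot be told apart.

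Together the 8 members made up 0.196% of all counts (0.175% to 0.303% per library). Nearly all of it came from 2 arms of the cluster. miR-25-3p held 127832 counts over the 23 libraries and ranked 53 in the table, and miR-93-5p held 102237 and ranked 58. miR-106b-5p (4565 counts), miR-106b-3p (4401) and miR-32-5p (3674) followed far behind, although miR-106b lies first in the same intron. The opposite strands of miR-93, miR-25 and miR-32 were scarce: 404 counts for miR-93-3p, 285 for miR-25-5p and 163 for miR-32-3p, which had 2 to 18 counts per library. Adapter ligation differs in efficiency between sequences, so the order of counts is not an order of molecules.

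Arm use differed between the hairpins. The 5p arm gave 99.6% of the miR-93 counts (99.3% to 99.9% per library) and 95.8% of the miR-32 counts (91.3% to 98.6%). From miR-25 the 3p arm gave 99.8% (99.6% to 99.9%). miR-106b alone was close to even, with 50.9% from the 5p arm and a range of 41.4% to 63.0% across libraries.

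**Figure D2:**
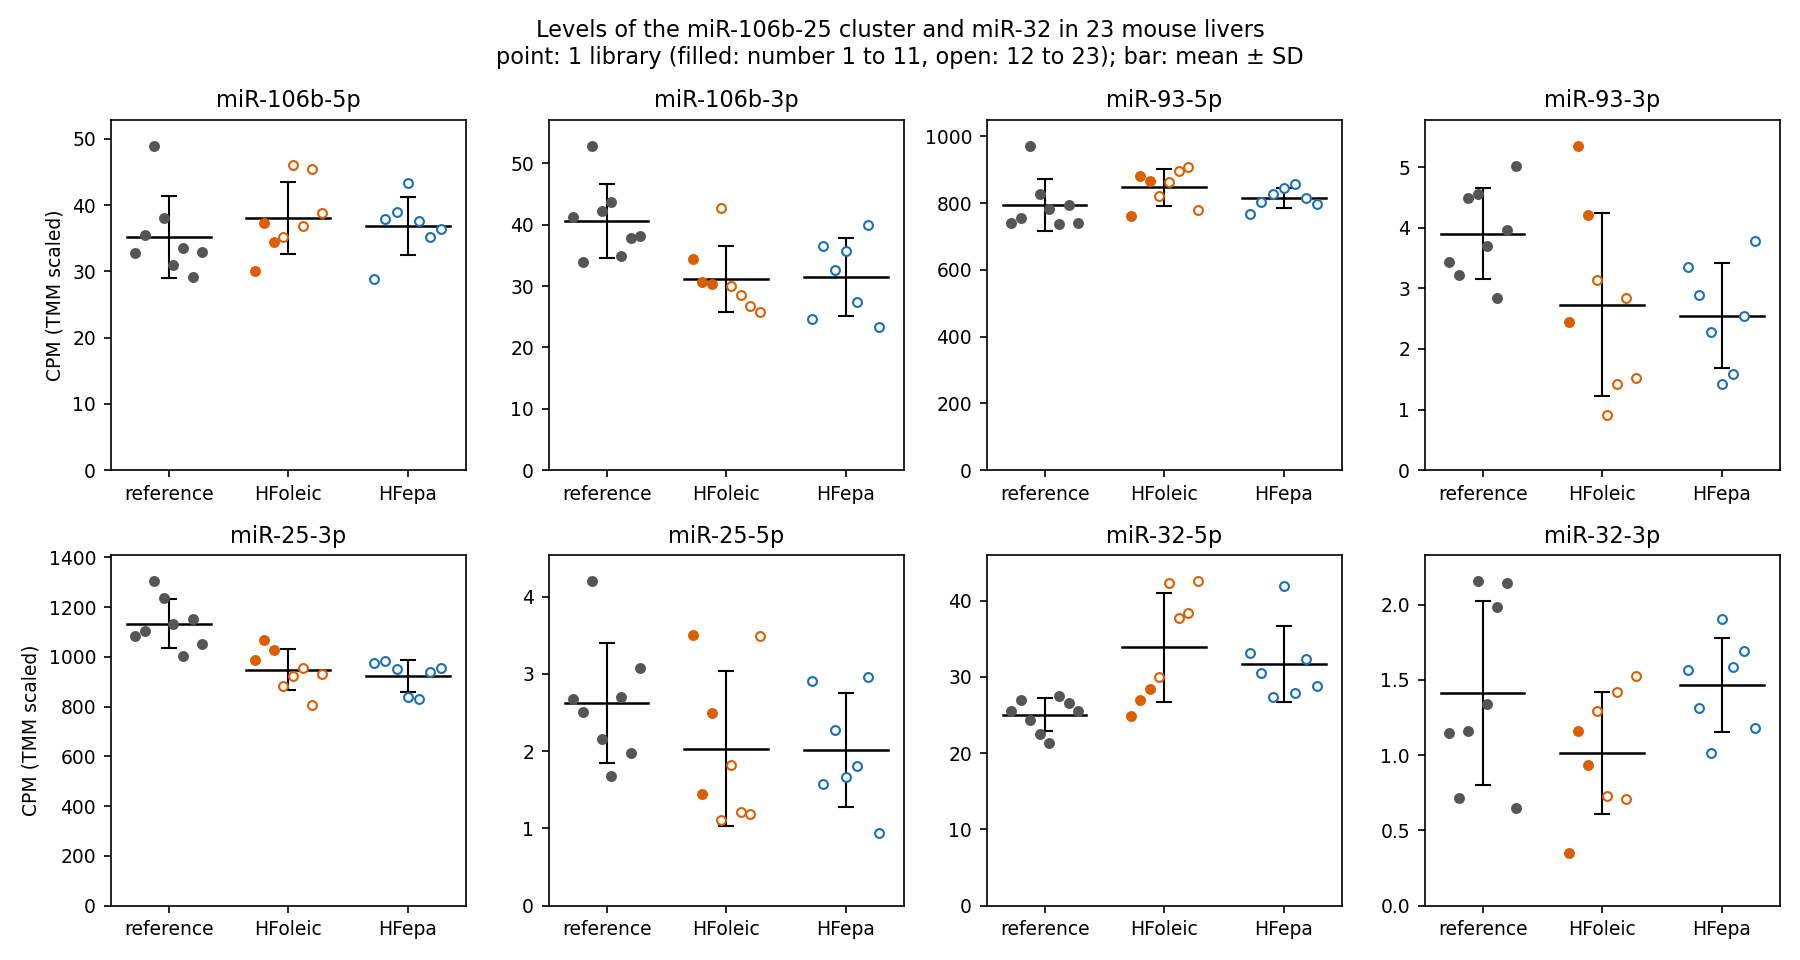
CPM (linear axis from 0) of each of the 8 members by group, with 1 point per library, filled for library numbers 1 to 11 and open for 12 to 23, and bars for the mean ± SD. All 7 HFepa points of miR-25-3p lie below all 8 reference points, while the groups overlap for miR-93-5p and miR-106b-5p, and the open points of miR-32-5p in HFoleic (29.9 to 42.6 CPM) lie above the filled ones (24.8 to 28.4 CPM).

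The first question was what the obesogenic diet did to the members within the control lineage. In HFoleic vs. reference, 3 of the 7 tested members were called, with an edgeR quasi-likelihood adjusted p below 0.05 and a log2 fold change beyond 0.25 in size: miR-25-3p and miR-106b-3p fell and miR-32-5p rose. The background was 12.4% of all 386 tested miRNAs called in either direction, 7.51% lower and 4.92% higher. Of these 48 calls 60.4% were lower, a split that moved with the scaling, to 78.7% with library size alone and 46.4% with DESeq2, and to 2 lower against 8 higher with quantile normalization. In HFepa vs. reference, 1 of 7 members was called, miR-25-3p, against a background of 15.8% in either direction, 10.6% lower and 5.18% higher. The median log2 fold change of the 7 members was -0.26 in HFoleic and -0.29 in HFepa, beside medians over all tested miRNAs of -0.0024 and -0.06. In each comparison 4 of the 7 were below 0, and the median was the value of miR-25-3p itself. miR-93-5p, miR-106b-5p and miR-32-5p were above 0, so the median does not describe a fall of the members as a whole. Without reference libraries 4 and 5 together, none of the 3 members was called in HFoleic (adjusted p = 0.0982 for miR-25-3p, 0.140 for miR-106b-3p and 0.100 for miR-32-5p) and miR-25-3p was still called in HFepa (adjusted p = 0.0301). The 2 comparisons share the reference libraries and are not independent. In HFepa the split of 41 lower and 20 higher calls moved to 23 and 24 with DESeq2, and to 6 and 18 with quantile normalization.

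Some miRNAs listed as markers of other cell types moved in the same comparisons. miR-150-5p, a lymphocyte miRNA and 1 of 6 leukocyte markers, fell in HFoleic (log2 fold change -0.94, adjusted p = 0.0174) and in HFepa (-1.40, adjusted p = 0.00122), and its calls held without each library in turn. The 1 tested pancreatic marker, miR-375-3p, fell in both (-3.87 and -4.19), but without reference library 5 the values were -0.32 and -0.62 and not called. Likewise the 1 tested muscle marker, miR-133a-3p, fell in both (-2.64 and -2.85), and without reference library 4 the values were -0.15 and -0.36 and not called. In HFepa 1 of 5 biliary markers, miR-429-3p, fell (-1.22, adjusted p = 0.0340), with -0.48 and no call without reference library 3, and 1 of 2 endothelial markers, miR-126a-5p, rose (0.25, adjusted p = 0.0416). The sum of the 5 biliary markers had a median of 191 CPM in reference livers, 233 in HFoleic and 216 in HFepa. Its means were 310, 236 and 224 CPM. The calls of miR-133a-3p, miR-429-3p and miR-126a-5p in HFepa were each lost without 7 or 8 of the 15 libraries in turn, and that of miR-133a-3p in HFoleic without 9 of 16. None of the 4 hepatocyte, 5 erythroid and 5 stellate cell markers was called by edgeR in any comparison. The part of these markers in the changes of the members was not tested.

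miR-25-3p was the member with the lowest adjusted p in both high-fat groups. Its CPM was 1004, 1118 and 1305 (lowest, median and highest) in reference livers, 808, 943 and 1068 in HFoleic, and 831, 953 and 982 in HFepa. All 7 HFepa libraries lay below every reference library, as did 6 of 8 in HFoleic. Such a complete separation downward was found for 2.59% of all tested miRNAs in HFepa vs. reference. The log2 fold change was -0.26 ± 0.064 (SE, adjusted p = 0.0174) in HFoleic, a level 16.4% lower with a 95% interval from 23.8% to 8.31% lower. In HFepa it was -0.29 ± 0.067 (adjusted p = 0.00653), or 18.5% lower (25.9% to 10.3%). The change is small, and its size in HFoleic sits at the fold change threshold. Leaving out reference library 2, 3, 4, 7 or 8 or HFoleic library 12, 13 or 15 brought the log2 fold change in HFoleic to between -0.24 and -0.22, inside that threshold, with adjusted p from 0.0192 to 0.0451. In HFepa the call held without each of the 15 libraries in turn (-0.32 to -0.26). HFoleic libraries 9 to 11, whose numbers adjoin the reference, averaged 1028 ± 39.5 CPM (SD, n = 3), between the reference (1134 ± 97.7, n = 8) and HFoleic libraries 12 to 15 and 23 (900.1 ± 57.8, n = 5). Within libraries 1 to 11 the log2 fold change was -0.13 (adjusted p = 0.662), and a term in the fit that separated numbers 1 to 11 from 12 to 23 left -0.14 for HFoleic (adjusted p = 0.478) and -0.10 for HFepa (adjusted p = 0.841). The part of library number in the result cannot be told apart from that of the groups for HFepa.

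miR-32-5p, which has the same seed, moved the other way. The reference libraries held 21.3, 25.6 and 27.5 CPM (lowest, median and highest), HFoleic 24.8, 33.8 and 42.6, and HFepa 27.3, 30.5 and 41.9. In 6 of 8 HFoleic and 6 of 7 HFepa libraries the level was above every reference library. Neither group was completely separated from the reference, as 2.07% of all tested miRNAs were upward in HFepa vs. reference. The share of miRNAs with such partial separation is not given, here or for miR-25-3p in HFoleic and miR-106b-3p. HFoleic was 35.1% higher than the reference (95% interval 14.1% to 60.1%), a log2 fold change of 0.43 ± 0.118 (adjusted p = 0.0233), and HFepa was 26.5% higher (6.14% to 50.7%), a log2 fold change of 0.34 ± 0.122 that missed the threshold (adjusted p = 0.0556). The HFoleic call was lost without reference library 5 or HFoleic library 13, 14 or 15 (adjusted p = 0.0511 to 0.0755), and the HFepa value was called without reference library 2, 6 or 7 (adjusted p = 0.0432 to 0.0494). HFoleic libraries 9 to 11 held 26.7 ± 1.80 CPM (SD, n = 3), inside the reference range but for library 11, and HFoleic 12 to 15 and 23 held 38.2 ± 5.12 CPM (n = 5). Accordingly the log2 fold change was 0.10 within libraries 1 to 11 (adjusted p = 0.762), and with the library number term it was 0.09 for HFoleic (adjusted p = 0.818) and turned to -0.18 for HFepa (adjusted p = 0.841). A fit without HFoleic libraries 9 to 11, added after seeing the data, gave 0.61 (edgeR adjusted p = 0.000609). It left out the lowest HFoleic values, so its larger size and smaller p are no further evidence of a rise.

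The pair with the miR-17 family seed showed no call. miR-93-5p stood at 738, 769.8 and 972 CPM (lowest, median and highest) in reference livers, 763, 864 and 908 in HFoleic, and 766, 816 and 856 in HFepa. The groups overlapped throughout, and reference library 3 held the highest value of all. The log2 fold changes were 0.09 (95% interval -0.03 to 0.21, adjusted p = 0.301) in HFoleic and 0.04 (-0.09 to 0.16, adjusted p = 0.732) in HFepa, and their sign turned under quantile normalization in both and with library size alone in HFepa. For miR-106b-5p the levels were 29.2, 33.2 and 49.0 CPM in reference livers, 30.1, 37.1 and 46.0 in HFoleic, and 28.9, 37.6 and 43.3 in HFepa. Its log2 fold changes of 0.11 (-0.12 to 0.33, adjusted p = 0.525) and 0.06 (-0.17 to 0.30, adjusted p = 0.762) also lay within the spread of the libraries, and turned sign with the library number term in both comparisons, within libraries 1 to 11 in HFoleic, and with library size alone in HFepa.

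Among the opposite strands, miR-106b-3p fell in HFoleic. Its lowest, median and highest CPM were 33.9, 39.7 and 52.9 in reference livers, 25.8, 30.1 and 42.7 in HFoleic, and 23.4, 32.6 and 40.0 in HFepa. Below all reference libraries lay 6 of 8 HFoleic and 4 of 7 HFepa libraries. The log2 fold change was -0.38 ± 0.125 for HFoleic (adjusted p = 0.0468) and -0.37 ± 0.130 for HFepa (adjusted p = 0.0522), so that the near-equal values fell on either side of the threshold. The HFoleic call is the least firm of the 3, since it remained when reference library 6 or HFoleic library 9 or 12 was left out and was lost without any of the other 13 (adjusted p up to 0.104, without reference library 3). Unlike the calls of the other two, its size was similar within libraries 1 to 11 (-0.34, adjusted p = 0.662) and with the library number term (-0.35 in HFoleic and -0.32 in HFepa, adjusted p = 0.437 and 0.777).

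The 3 scarcer strands gave wide intervals. miR-93-3p had 2.84 to 5.02 CPM in reference livers, 0.913 to 5.35 in HFoleic and 1.43 to 3.78 in HFepa, with log2 fold changes of -0.49 (95% interval -1.05 to 0.07, adjusted p = 0.225) and -0.61 (-1.21 to -0.01, adjusted p = 0.165). HFoleic libraries 9 to 11 averaged 4.01 CPM and libraries 12 to 15 and 23 averaged 1.97. Without the former, in a fit added after seeing the data, the log2 fold change was -0.99 (edgeR adjusted p = 0.0202). That fit left out the libraries with the higher mean, so its p is no further evidence of a fall. miR-25-5p had 1.68 to 4.20 CPM in reference livers, 1.11 to 3.50 in HFoleic and 0.945 to 2.96 in HFepa, and its log2 fold changes of -0.36 and -0.37 were not called (adjusted p = 0.377 and 0.436). For miR-32-3p, outside the filter, the range was 0.648 to 2.16 CPM in reference livers, 0.350 to 1.53 in HFoleic and 1.01 to 1.90 in HFepa. When all 1218 miRNAs were tested without the filter its log2 fold changes were -0.48 and 0.04 against the reference (adjusted p = 0.430 and 0.999), and a difference was not detectable at this depth.

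The question of lineage was addressed by HFepa vs. HFoleic. None of the 7 members was called by edgeR, with a background of 0% of 386 miRNAs, and none had an unadjusted p under 0.05, against 22 of the 386. DESeq2 and limma-voom called none of the members either. The log2 fold change was -0.04 (95% interval -0.17 to 0.10) for miR-25-3p, -0.05 (-0.18 to 0.07) for miR-93-5p and -0.10 (-0.35 to 0.16) for miR-32-5p, each with adjusted p = 0.968. For the 2 abundant arms these intervals leave room for a difference within these limits (11.4% lower to 7.25% higher for miR-25-3p, 11.7% lower to 5.07% higher for miR-93-5p). For miR-93-3p and miR-25-5p they reached from 39.9% lower to 40.7% higher and from 34.6% lower to 52.2% higher. In other edgeR fits miR-32-5p in HFepa was further below HFoleic. Its log2 fold change was -0.27 with the library number term (unadjusted p = 0.0224, adjusted p = 0.593). Without HFoleic libraries 9 to 11, a fit added after seeing the data, it was -0.27 (unadjusted p = 0.0308, adjusted p = 0.754). Within libraries 12 to 23 it was -0.26 (adjusted p = 0.851). For miR-32-3p, tested only without the filter, the log2 fold change was 0.52 ± 0.331 (SE, adjusted p = 0.750, unadjusted p = 0.131), and 4 of 7 HFepa libraries lay above all 8 HFoleic libraries, at 2 to 8 counts per library in both groups.

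**Figure D3:**
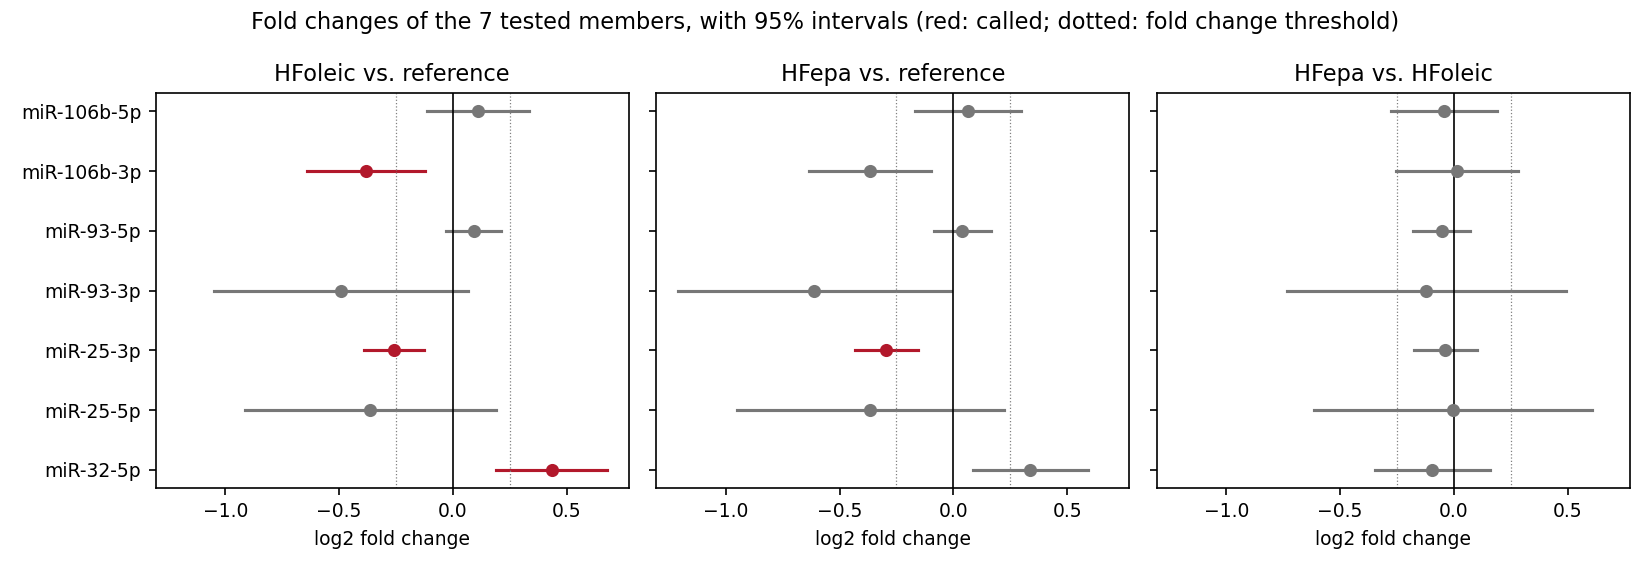
Log2 fold changes (x axis) of the 7 tested members in the 3 comparisons, as points with 95% intervals, red where called and grey where not, with dotted lines at the fold change threshold of 0.25. miR-25-3p is called in both comparisons with the reference, miR-106b-3p (-0.38) and miR-32-5p (0.43) in HFoleic vs. reference, and no member in HFepa vs. HFoleic.

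The ratio of 2 members within a library does not depend on how libraries are scaled, so the members were also compared with each other by exact permutation tests (two-sided, log2 of counts plus 1, Benjamini-Hochberg adjusted over 24 tests). The clearest difference was between the 2 abundant arms of the cluster. There were 0.669 to 0.745 counts of miR-93-5p per count of miR-25-3p in reference livers, 0.771 to 1.12 in HFoleic and 0.786 to 1.03 in HFepa. Neither high-fat group overlapped the reference. Over all 74305 pairs of tested miRNAs, 0.371% were separated in this way in HFoleic vs. reference and 3.64% in HFepa vs. reference. The log2 difference was 0.35 ± 0.062 (SE, exact permutation p = 0.000155, the smallest 8 against 8 libraries can give, adjusted p = 0.00249) in HFoleic and 0.34 ± 0.060 (exact permutation p = 0.000311, adjusted p = 0.00249) in HFepa. It was higher in all 8 HFoleic and all 7 HFepa libraries. Leaving out any library kept it between 0.31 and 0.38 in HFoleic and between 0.30 and 0.37 in HFepa. HFoleic libraries 9 to 11 also lay above all reference libraries, with a log2 difference of 0.22 within libraries 1 to 11 (exact permutation p = 0.0121, the smallest that 3 against 8 can give, adjusted p = 0.0970).

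miR-32-5p and miR-25-3p, with their common seed, diverged more. Per count of miR-25-3p there were 0.0183 to 0.0276 counts of miR-32-5p in reference livers, 0.0253 to 0.0477 in HFoleic and 0.0289 to 0.0503 in HFepa. The log2 difference was 0.67 ± 0.160 (exact permutation, adjusted p = 0.00559) in HFoleic, where the groups overlapped, and 0.63 ± 0.126 (exact permutation, adjusted p = 0.00249) in HFepa, where they did not. Within libraries 1 to 11 it was 0.23 (exact permutation p = 0.0727, adjusted p = 0.194). The ratio of miR-106b-5p to miR-25-3p rose by 0.37 in HFoleic and 0.37 in HFepa (exact permutation, adjusted p = 0.0205 for both), but by 0.09 within libraries 1 to 11 (exact permutation, adjusted p = 0.679), and the HFepa difference missed the threshold without HFepa library 18, 19 or 20 (0.31 to 0.36, adjusted p = 0.0554). Without reference libraries 4 and 5 together it was 0.34 in both and passed in neither (exact permutation, adjusted p = 0.0622), and as a difference of medians the HFepa value missed the threshold (0.32, exact permutation, adjusted p = 0.0821). The ratios of miR-93-5p and of miR-32-5p to miR-25-3p passed in both of these settings. All ratios to miR-25-3p share that miRNA, itself called lower in both comparisons, and the same reference libraries. They are therefore not independent results.

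The balance between the arms of miR-106b moved toward the 5p arm. In the reference group there were 0.709 to 1.05 counts of the 5p arm per count of the 3p arm, with 7 of 8 libraries below 1, against 0.823 to 1.69 in HFoleic and 0.879 to 1.55 in HFepa. The groups overlapped. The log2 difference was 0.50 ± 0.148 in HFoleic (exact permutation, adjusted p = 0.0205) and 0.45 ± 0.119 in HFepa (exact permutation, adjusted p = 0.0134), and each passed without any single library. The HFoleic difference missed the threshold as a difference of medians (0.51, exact permutation, adjusted p = 0.0570) and without reference libraries 4 and 5 together (0.46, exact permutation, adjusted p = 0.0622), whereas the HFepa difference passed in both. Within libraries 1 to 11 it was 0.30 (exact permutation p = 0.0727, adjusted p = 0.194). For miR-93 the ratio of 5p to 3p was higher by 0.73 in HFoleic and 0.63 in HFepa (exact permutation, adjusted p = 0.0477 and 0.0215), with 5 to 38 counts of the 3p arm behind each library. That difference was 0.09 within libraries 1 to 11 (exact permutation, adjusted p = 0.776), and it missed the threshold without reference library 4 or 8 or HFoleic library 9, 12, 13, 14, 15 or 23 in HFoleic (0.54 to 0.78), and without HFepa library 18, 19, 20 or 21 in HFepa (0.51 to 0.64). In both comparisons it also missed it as a difference of medians (exact permutation, adjusted p = 0.0580) and without reference libraries 4 and 5 (exact permutation, adjusted p = 0.115 and 0.0622). For miR-25 the ratio of 3p to 5p differed by 0.14 (95% interval -0.40 to 0.68) in HFoleic and 0.03 (-0.45 to 0.53) in HFepa, with exact permutation and adjusted p = 0.961 and 0.963. None of the 8 ratios tested differed between HFepa and HFoleic (exact permutation, adjusted p = 0.523 to 0.980), none had an unadjusted p under 0.05, and none was free of overlap, as 0.0175% of all pairs were.

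**Figure D4:**
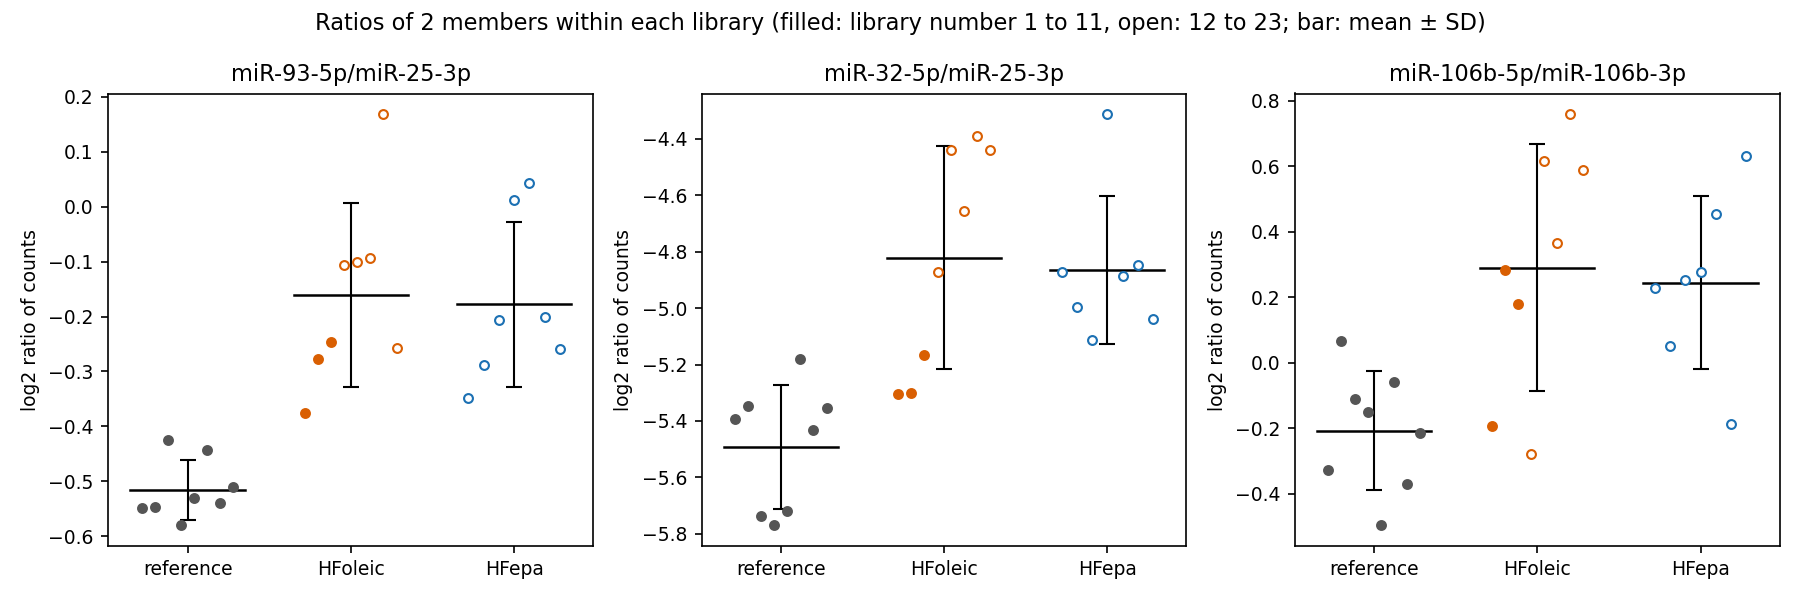
Log2 ratios of counts (y axis, log2 scale) within each library for 3 pairs of members, with 1 point per library, filled for library numbers 1 to 11 and open for 12 to 23, and bars for the mean ± SD. For miR-93-5p/miR-25-3p all HFoleic and HFepa points lie above all reference points, while for miR-106b-5p/miR-106b-3p the groups overlap.

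Set against the miRNAs outside the cluster that have the same seeds, neither abundant arm changed beyond the test relative to its nearest relative. miR-92a-3p, made from the miR-17-92 and miR-106a-363 clusters, had 6870 ± 503 CPM (SD, n = 8) in reference livers, 5697 ± 1036 (n = 8) in HFoleic and 5712 ± 1063 (n = 7) in HFepa, with log2 fold changes of -0.27 in both that were not called (adjusted p = 0.116 and 0.124). The log2 ratio of miR-25-3p to miR-92a-3p differed by 0.03 (95% interval -0.18 to 0.24) in HFoleic and -0.01 (-0.26 to 0.24) in HFepa (exact permutation, adjusted p = 0.961 and 0.980). The interval in HFoleic leaves room for a ratio between 0.880 and 1.18 times that of the reference. miR-17-5p, the relative of miR-93-5p, had log2 fold changes of 0.08 and 0.11 (adjusted p = 0.581 and 0.465). The log2 ratio of miR-93-5p to miR-17-5p differed by 0.02 (-0.10 to 0.13) in HFoleic and -0.06 (-0.21 to 0.09) in HFepa (exact permutation, adjusted p = 0.961 and 0.712).

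Of the 4 other miRNAs with the seed of miR-25-3p in RefSeq, 3 were in the table and 2 passed the filter. miR-92b-3p, the second, fell in both comparisons (log2 fold change -1.19 and -1.17, adjusted p = 0.0301 and 0.0340) at a level of 7.83 to 54.9 CPM in reference livers, 4.46 to 10.8 in HFoleic and 5.43 to 9.19 in HFepa. Reference library 3, which also stood apart in the biliary miRNAs, held the highest of these values, and without it the log2 fold changes were -0.60 and -0.59 and not called (adjusted p = 0.0717 and 0.0821). The calls were also lost without reference library 5 in both, without HFoleic library 14 or 15, and without any of HFepa libraries 18 to 22. Of the 5 others with the seed of miR-93-5p, 4 were in the table and 2 passed the filter, miR-17-5p and miR-20a-5p, neither of them called. Of the 12 listed strands of the miR-17-92 cluster, 9 were tested. In HFoleic 2 fell, miR-18a-3p (-0.67, adjusted p = 0.0344) and miR-19a-3p (-0.40, adjusted p = 0.0469), and in HFepa 1, miR-19a-3p (-0.49, adjusted p = 0.0224), with none higher. In HFoleic the call of miR-18a-3p was lost without 8 of the 16 libraries in turn (adjusted p up to 0.0805, without reference library 4) and that of miR-19a-3p without 13 of 16 (adjusted p up to 0.118, without HFoleic library 13). In HFepa the call of miR-19a-3p was lost without HFepa library 22 (adjusted p = 0.0501). The median log2 fold change over the 9 was -0.19 and -0.06. Of the 10 listed strands of the miR-106a-363 cluster 6 were in the table, and none passed the filter.

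The members had very different shares of the counts of their seed families. The 5 detected miRNAs with the seed of miR-25-3p summed to 8046 ± 424 CPM (SD, n = 8) in reference livers, 6687 ± 1100 (n = 8) in HFoleic and 6676 ± 1108 (n = 7) in HFepa. Over all libraries miR-92a-3p made up 85.2% of that sum, miR-25-3p 14.2% and miR-32-5p 0.444%. In counts, the gain in miR-32-5p was thus small beside the level of its seed family. Shares of counts are not shares of molecules, since adapter ligation differs between sequences. In the other family the members were the larger share. The 6 detected miRNAs with the seed of miR-93-5p summed to 995 ± 98.0 CPM in reference livers, 1058 ± 70.7 in HFoleic and 1024 ± 41.0 in HFepa, of which miR-93-5p made up 79.8% and miR-106b-5p 3.57%.

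**Figure D5:**
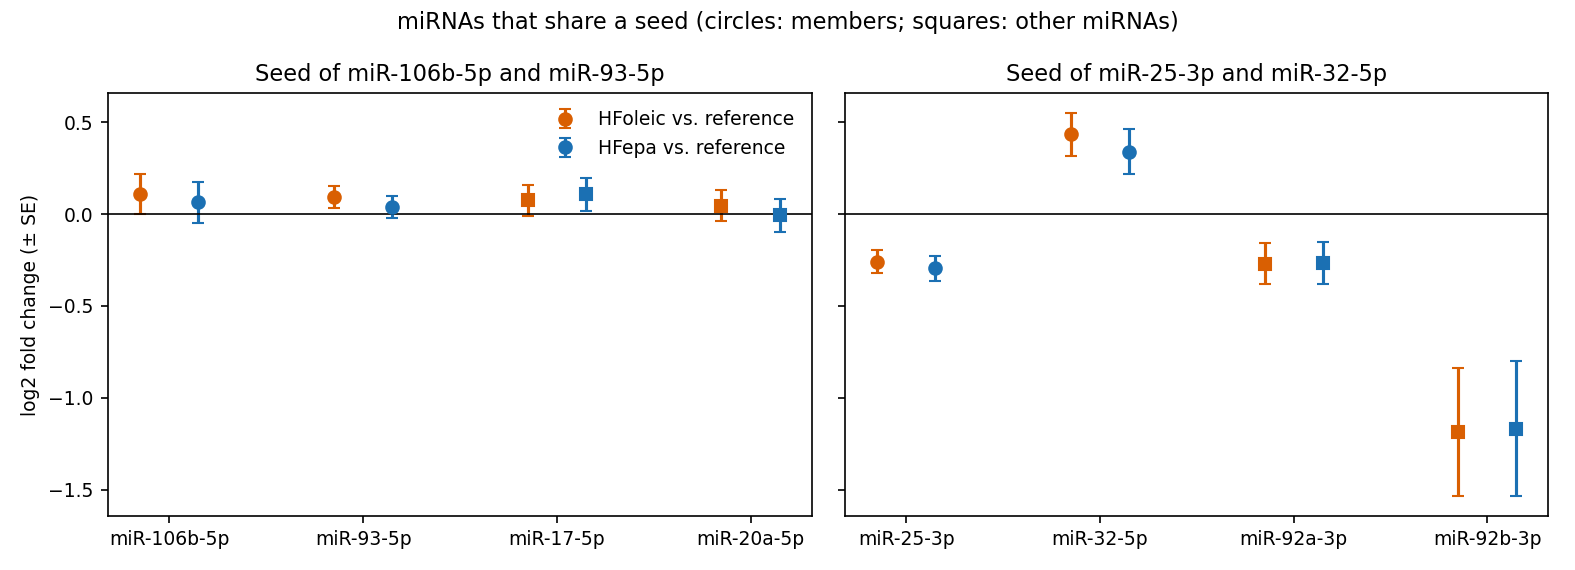
Log2 fold changes (y axis, ± SE) against the reference of the tested miRNAs with each of the 2 seeds, in orange for HFoleic and blue for HFepa, with circles for members and squares for other miRNAs. The 4 miRNAs of the first seed lie near 0, whereas miR-25-3p, miR-92a-3p and miR-92b-3p lie below 0 and miR-32-5p above it.

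Across libraries, with the group means removed, some strands of the cluster varied together and others did not. These correlations of log2 CPM over 23 libraries are descriptions, since all values of a library share its scaling. The highest between members was that of miR-106b-5p and miR-93-5p (Pearson r = 0.71, Spearman rho = 0.54). miR-93-5p and miR-25-3p had r = 0.28 (rho = 0.18), and miR-106b-5p and its own opposite strand r = 0.19 (rho = 0.07). miR-32-5p ran against miR-93-3p (r = -0.63, rho = -0.54) and miR-25-3p (r = -0.48, rho = -0.50). By the highest r among all tested miRNAs, the pattern nearest to miR-25-3p was that of let-7e-5p (r = 0.81, rho = 0.80), followed by miR-532-5p (0.72, rho = 0.67) and miR-19b-3p (0.64, rho = 0.60). The nearest to miR-93-5p was miR-342-3p (r = 0.81, rho = 0.66), to miR-106b-5p miR-15b-5p (r = 0.78, rho = 0.77), to miR-106b-3p miR-125b-1-3p (r = 0.58, rho = 0.58) and to miR-32-5p miR-3084-3p (r = 0.66, rho = 0.61). No member had another member among its 3 nearest. For miR-106b-5p this was by a narrow margin, with r = 0.712 for miR-331-3p, the last of its 3 nearest, and 0.710 for miR-93-5p. With the 2 libraries farthest from the median of the member left out, the r of let-7e-5p with miR-25-3p was 0.75 and that of miR-342-3p with miR-93-5p was 0.73. It was 0.66 for miR-15b-5p with miR-106b-5p, 0.42 for miR-125b-1-3p with miR-106b-3p and 0.48 for miR-3084-3p with miR-32-5p. No such value is given for pairs of members, and reference library 3 stood apart in both miR-106b-5p and miR-93-5p.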

How the data were processed

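Small RNA libraries from total liver RNA of 23 mice were sequenced, trimmed, aligned with Bowtie and annotated against miRBase by the authors, and the table they deposited holds raw counts per mature miRNA in every library. The genome build is named differently in the sources used here (GRCm38.p6 and mm9 in the methods, mm10 in the submitters' processing notes), and the table holds no coordinates. Its columns of normalised values, group means, fold changes and p-values were not used. Library totals were 3725432 to 8139344 counts, and intervals on them would cover counting error only. No 2 libraries of a group agreed within sampling noise (chi-square per degree of freedom of 28.9 or more).

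Counts were filtered with filterByExpr, scaled by TMM and fitted for the 3 groups together with the quasi-likelihood test of edgeR 4.0.16 (R 4.3.3, limma 3.58.1), with Benjamini-Hochberg adjustment over 386 miRNAs. A call needed an adjusted p under 0.05 and a log2 fold change beyond 0.25. Tested on simulated data of HFoleic vs. reference (376 miRNAs), it called 87 of 95 miRNAs changed 2-fold, 52 of 97 changed 1.4-fold and 1 of 184 unchanged. The simulation held no effect of library number, no library made to stand apart and no change smaller than 1.4-fold. Its rates therefore need not hold for these data. Ratios within a library used log2(count + 1) and exact permutation tests (scipy 1.17.1), with 95% intervals from shifting the groups. DESeq2 1.42.0, limma-voom with quality weights, quantile normalization, other scalings, filters, thresholds, sets of libraries, a library number term and leaving out each library were alternatives. The fit without HFoleic libraries 9 to 11 was added after seeing the data. Genes named were the 8 members, the miRNAs sharing their seeds, 2 related clusters and the 3 miRNAs most like each member, and of the listed cell type markers those that were called. These members, lists and tests were chosen with earlier results of these data known. Each library was 1 mouse, so p-values measure the spread between mice. They measure no spread between lineages or litters, since each supplement is described as 1 lineage and litter was not part of the fits.

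Sequences and hairpin positions came from the RefSeq miRNA table (GRCm38.p6), where 8 of 8 members and 1045 of the 1218 miRNAs matched by name, and host genes from GENCODE M21.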

Additional observations from a re-analysis of the deposited data

Results flagged for a closer look

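In groups of 7 or 8 libraries, 51 sets of values were checked for a library that stood apart by Dixon's criterion, and 4 met it. Chance alone flags about 1 in 20 such groups. Reference library 3 held 48.97 CPM of miR-106b-5p, against 29.2 to 38.0 CPM in the other reference libraries, and 972 CPM of miR-93-5p, against 738 to 826 CPM. This library also had the highest TMM factor (1.26), the lowest summed level of the hepatocyte miRNAs (183918 CPM) and the highest of the biliary epithelial miRNAs (1094 CPM), and their part in its values was not tested. Without it the log2 fold changes of miR-106b-5p and miR-93-5p were still not called. HFepa library 19 held 41.9 CPM of miR-32-5p, against 27.3 to 33.1 CPM in the other HFepa libraries, and a log2 ratio of miR-32-5p to miR-25-3p of -4.31, against -5.11 to -4.85. It had the highest TMM factor of its group (1.13) and the lowest hepatocyte sum (255943 CPM). Without it that ratio still differed between HFepa and the reference.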

How the results depend on the processing

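No paired analysis was possible because each library number belongs to 1 mouse and no number is shared between groups. Members called in HFoleic vs. reference numbered 3. They numbered 1 with limma-voom or upper-quartile factors (miR-32-5p) and 1 with quantile normalization or library size alone (miR-25-3p). They numbered 0 without a filter, with only the 2 groups compared and with the library number term. The same held within libraries 1 to 11 and without reference libraries 4 and 5. With single libraries left out they numbered 0 to 3. In HFepa vs. reference 1 member was called. That became 3 with DESeq2, 2 with at least 10 counts in every library, with only the 2 groups compared or at an unadjusted p under 0.01, 0 with limma-voom, upper-quartile factors or the library number term, and 1 to 2 with single libraries left out. In HFepa vs. HFoleic it was 0 under all alternatives run and with single libraries left out. With limma-voom miR-25-3p passed the threshold on adjusted p but not that on fold change. Its log2 fold change was -0.22 in HFoleic (limma-voom adjusted p = 0.0230) and -0.24 in HFepa (limma-voom adjusted p = 0.00474). With upper-quartile factors in HFepa its adjusted p missed instead (-0.26, edgeR adjusted p = 0.0587). Why the settings gave different values was not tested. The log2 fold change of miR-25-3p stayed below 0 against the reference under all 14 alternatives in HFoleic (-0.38 to -0.13) and all 12 in HFepa (-0.40 to -0.10). It was called in 7 of these 14 and 9 of these 12. Over all miRNAs, calls in HFoleic vs. reference numbered 48, of which 29 lower, and with DESeq2 15 higher and 13 lower, with quantile normalization 8 and 2.

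Signs turned only for values that were not called, with the library number term for miR-106b-5p (-0.055 in HFoleic and -0.19 in HFepa), miR-93-3p (0.042 and 0.42), miR-25-5p in HFepa (0.12) and miR-32-5p in HFepa (-0.18). Within libraries 1 to 11 they turned for miR-106b-5p (-0.045), miR-93-3p (0.048) and the ratios miR-25-3p/miR-92a-3p (-0.13) and miR-25-3p/miR-25-5p (-0.027) in HFoleic. Quantile normalization turned miR-93-5p (-0.083 and -0.078), and library size alone turned miR-93-5p (-0.031) and miR-106b-5p (-0.0080) in HFepa. The ratio miR-25-3p/miR-92a-3p in HFepa was 0.062 by medians and 0.028 without reference libraries 4 and 5. In HFepa vs. HFoleic the turned values were 0.38 and 0.38 for miR-93-3p, 0.038 and 0.039 for miR-25-3p and 0.21 and 0.21 for miR-25-5p (library number term, and without HFoleic libraries 9 to 11), 0.39 for miR-93-3p and 0.045 for miR-25-3p (libraries 12 to 23 alone), 0.015 for miR-93-3p and 0.11 for miR-25-5p (limma-voom), 0.033 for miR-106b-5p, 0.0050 for miR-93-5p and 0.024 for miR-25-5p (quantile normalization), 0.015 for miR-25-5p (DESeq2), 0.00060 for miR-25-5p (library size alone), -0.0076 for miR-106b-3p (at least 10 counts), -0.0039 for miR-106b-3p (upper-quartile factors) and 0.019 for miR-93-5p/miR-93-3p (difference of medians). With single libraries left out, the uncalled differences between HFepa and HFoleic that turned sign ran from -0.085 to 0.015 for miR-106b-5p, -0.029 to 0.098 for miR-106b-3p, -0.24 to 0.093 for miR-93-3p and -0.11 to 0.16 for miR-25-5p. Those of the log2 ratios ran from -0.13 to 0.026 for miR-106b-5p/miR-106b-3p, -0.24 to 0.087 for miR-93-5p/miR-93-3p, -0.054 to 0.030 for miR-93-5p/miR-25-3p, -0.067 to 0.067 for miR-106b-5p/miR-25-3p, -0.14 to 0.018 for miR-32-5p/miR-25-3p and -0.10 to 0.020 for miR-25-3p/miR-92a-3p. Against the reference they were -0.026 to 0.089 for miR-25-3p/miR-92a-3p and -0.0031 to 0.054 for miR-93-5p/miR-17-5p in HFoleic, and -0.071 to 0.053 for miR-25-3p/miR-92a-3p and -0.12 to 0.12 for miR-25-3p/miR-25-5p in HFepa. Depth limits miR-93-3p, miR-25-5p and miR-32-3p, each at fewer than 40 counts in every library.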
